A study of Mus musculus with 8 samples.

Results

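The nuclear genes of the mitochondrial respiratory chain and ATP synthase were taken as all rows of the deposited count table whose symbol starts with Nduf, Uqcr, Atp5 or Cox4 to Cox8, together with Sdha, Sdhb, Sdhc and Sdhd. This gave 92 of 24047 rows, of which 83 had enough reads to be tested. The libraries came from labelled astrocytes of the mouse somatosensory cortex sorted for the red reporter tdTomato at postnatal days 23 to 25, after tamoxifen on postnatal days 12 to 14. In the 4 Ptch1cKO libraries the mice carried Glast-CreERT2, Ai14 and floxed alleles of Ptch1 on both chromosomes (Ptch1fl/fl), and in the 4 WT libraries Glast-CreERT2 and Ai14 alone, so tamoxifen and Cre were shared by both groups. Glast-CreERT2 is a tamoxifen-dependent Cre made in cells that use the glutamate transporter gene Glast (Slc1a3), Ai14 makes tdTomato where Cre has acted, and Ptch1 is the receptor that restrains Hedgehog signalling. The question addressed is whether transcripts for oxidative phosphorylation differed in these cells when Ptch1 was targeted. Whether every library is from a different animal is not stated in the labels, and a p-value here reflects the spread among these 8 samples, which may be technical.

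Total counts were 4061274 to 7043378 in Ptch1cKO libraries and 4958119 to 7206462 in WT libraries. Ptch1 itself was read at 219, 249, 168 and 258 CPM (counts relative to the scaled library total) in Ptch1cKO replicates 1 to 4 and at 285, 227, 491 and 425 CPM in WT replicates 1 to 4. These overlap, through WT replicate 2, and whole-gene counts also hold reads from outside the floxed exons. Of 9 astrocyte markers, all 9 had counts, with summed levels of 18563 to 37595 CPM in Ptch1cKO and 23959 to 34781 CPM in WT. Transcripts of other cells were present too. The 6 oligodendrocyte markers summed to 17309 to 22937 CPM in Ptch1cKO and 13663 to 26503 CPM in WT, and the 8 neuronal markers to 3772 to 4867 CPM in Ptch1cKO and 3780 to 5211 CPM in WT. In bulk RNA, fewer cells of a type and less RNA per cell cannot be told apart. All 4 Ptch1cKO libraries and 2 of the 4 WT libraries had under 10 reads of Xist, the transcript of the inactive X chromosome, while WT replicates 2 and 3 had 1148 and 612.

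Respiration passes electrons from NADH through complex I and from succinate through complex II to coenzyme Q, then through complex III, cytochrome c and complex IV to oxygen. Complexes I, III and IV pump protons across the inner mitochondrial membrane, and complex V, the ATP synthase, uses the gradient to make ATP. Most subunits are encoded in the nucleus and a small core in the mitochondrial genome. Astrocytes carry out much glycolysis and also respire, oxidising fatty acids and glutamate taken up from synapses.

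By edgeR's quasi-likelihood test, 0 of the 83 tested members passed a Benjamini-Hochberg adjusted p of 0.05, where 11 (0.10%) of all 10954 tested genes did. An unadjusted p under 0.05 was found for 3 members, all higher in Ptch1cKO, which is 3.61% of members against 9.34% of all tested genes in either direction and 4.80% in that direction. DESeq2 also called 0 members, against 0.694% of all genes. It had 3 members (3.61%) with an unadjusted p under 0.05, against 9.77% of all genes. Without Ptch1cKO replicate 1, 10 members (12.05%) had an unadjusted p under 0.05, against 9.23% of all genes, and 0 passed edgeR's adjusted test. Fold changes were small: 78 of the 83 lay within 0.5 of zero on the log2 scale. Their direction was uneven, with 64 members (77.1%) above zero against 49.6% of all genes, and a median log2 fold change of 0.13 against -0.0019 over all genes. The median was 0.071 without Ptch1cKO replicate 2 and 0.20 without replicate 1. That direction depended on the scaling. In the authors' deposited TPM (a relative abundance scaled for transcript length), 41 members (49.4%) were above zero, where 36.0% of all genes were. On that scale the median of all genes was -0.098 (log2(TPM + 1) difference) and that of members -0.0035, so members stood 0.095 above all genes in TPM and 0.13 above them in scaled counts. These counts over members are descriptions, with no test of the list.

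**Figure D1:**
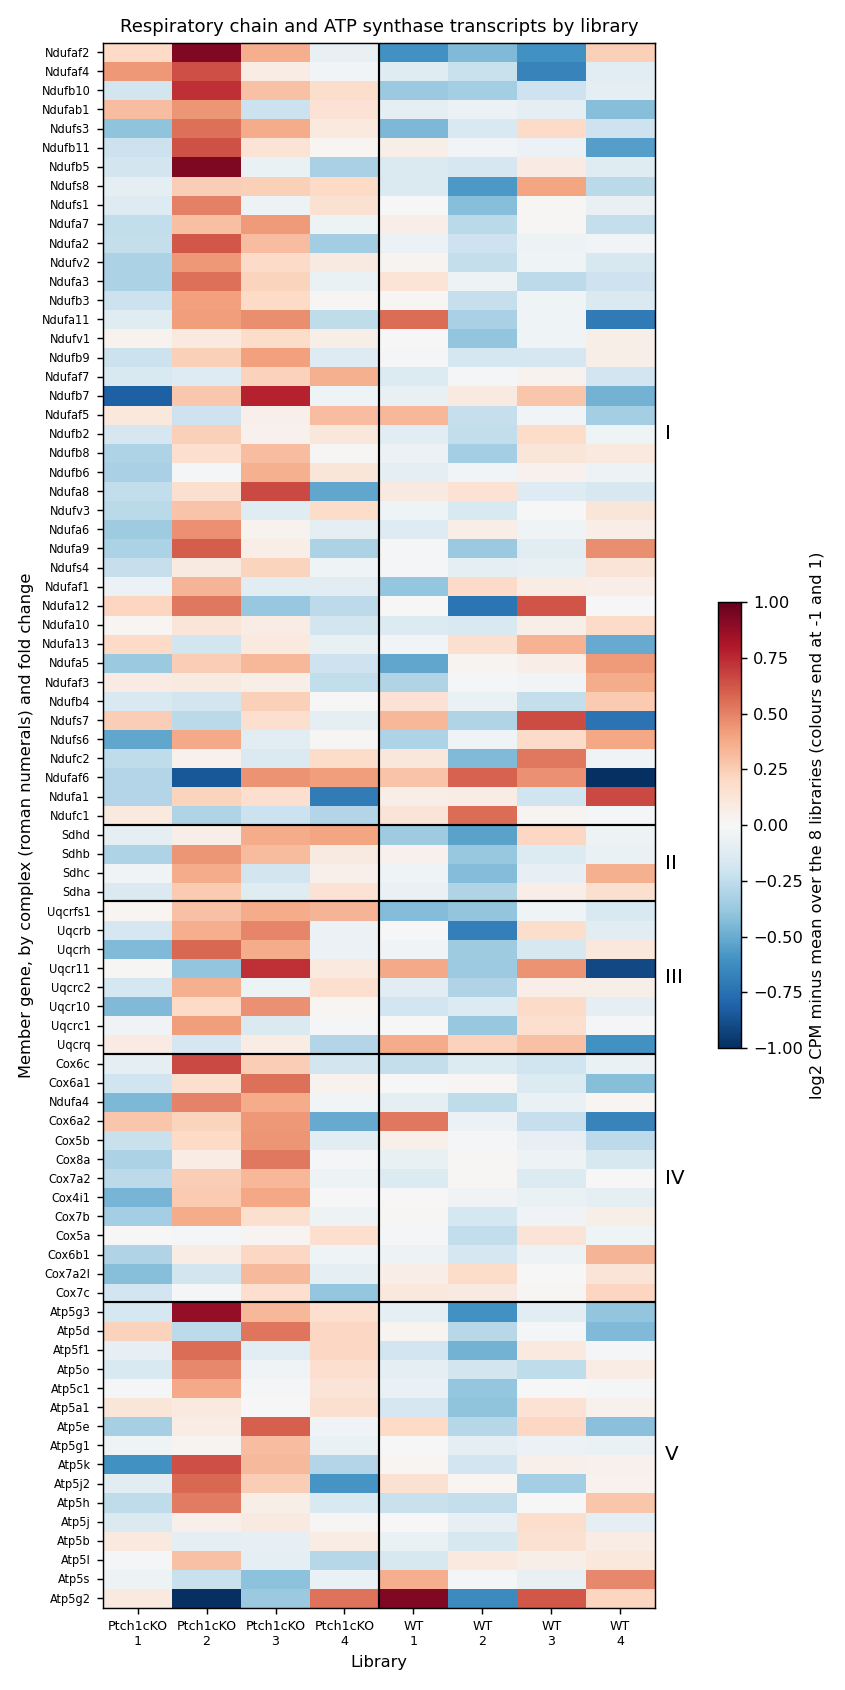
Each row is 1 of 82 of the 83 tested members, grouped by complex I to V and ordered by fold change, and each column is a library, Ptch1cKO on the left and WT on the right. Colour gives log2 CPM minus the member's mean over the 8 libraries, and the columns of Ptch1cKO replicates 2 and 3 hold the highest value of 55 of the 83 members.

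The members varied together by library rather than by genotype alone. Ptch1cKO replicate 2 held the highest CPM of 34 of the 83 members (41.0%, against 15.6% of all tested genes), and replicate 3 that of 21 (25.3%, against 15.1%). Ptch1cKO replicate 1 held the highest value of 0 members and the lowest of 21 (25.3%, against 9.13% of all genes). In WT, replicate 2 held the lowest value of 25 members (30.1%, against 13.7%). In 31 members, replicates 2 and 3 of Ptch1cKO both lay above all 4 WT libraries, whereas replicate 1 of Ptch1cKO lay below the WT median in 56 members and replicate 4 in 35. How many of all tested genes had these orders was not counted, so whether members differ from them in this is not known. Averaged over the 83 members, the log2 CPM was 5.24, 5.62, 5.57 and 5.36 in Ptch1cKO replicates 1 to 4, against 5.36, 5.22, 5.41 and 5.33 in WT replicates 1 to 4. The groups overlapped, at 5.45 ± 0.18 in Ptch1cKO and 5.33 ± 0.084 in WT (mean ± SD, n = 4). The same average over all tested genes was 4.25 to 4.30 in Ptch1cKO and 4.23 to 4.28 in WT.

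Astrocyte and microglial marker sums did not run in parallel in the high libraries, while the neuronal sum was highest in both within Ptch1cKO. Snap25 made up most of the neuronal sum, at 3037, 3560, 3824 and 2913 CPM in Ptch1cKO replicates 1 to 4. Single neuronal markers differed. Stmn2 and Gad1 were also highest in replicates 2 and 3 of the group, while Rbfox3 and Tubb3 were lowest in replicate 2. The neuronal sums were 3930, 4392, 4867 and 3772 CPM in Ptch1cKO replicates 1 to 4. In WT replicates 1 to 4 they were 4775, 3780, 4320 and 5211 CPM. Ptch1cKO replicate 2 had the highest astrocyte marker sum of all 8 libraries (37595 CPM) and replicate 3 the lowest (18563 CPM). Slc1a2 was the largest part of these sums, at 24560 CPM in replicate 2 and 9327 CPM in replicate 3. Gfap ran the other way, at 50.2 and 341 CPM. For the 8 microglial markers, replicate 3 had the highest sum (542 CPM) and replicate 2 the lowest of its group (229 CPM), against 195 to 417 CPM in WT. The part of these differences in the respiratory chain values was not tested.

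Libraries also differed between classes of members set by the length of the longest annotated transcript. Among the 27 members whose longest annotated transcript had at most 875 bases, log2 CPM stood at -0.25, 0.24, 0.30 and -0.076 relative to the mean of the 8 libraries in Ptch1cKO replicates 1 to 4, and at 0.024, -0.18, 0.0055 and -0.062 in WT replicates 1 to 4. Over all 230 tested genes of that length, Ptch1cKO replicate 3 was also at 0.30, while replicate 2 was at -0.057. Among the 28 members whose longest annotated transcript exceeded 1697 bases, Ptch1cKO replicate 2 stood at 0.32 and replicate 3 at 0.086. All 9296 genes of that class were at -0.020 and 0.0073. Among the 27 members of middle length, Ptch1cKO replicates 2 and 3 stood at 0.12 and 0.16, where all 966 genes of that length were at 0.015 and 0.19. The longest annotated transcript need not be the one counted. Atp5g1, at 4715 bases, averaged 948 TPM from 302 CPM in Ptch1cKO. Atp5b, at 1916 bases, averaged 5125 TPM from 3689 CPM. TPM are scaled for length, so the length behind the Atp5g1 value was shorter than that behind Atp5b, and the classes are rough. The part of length in the respiratory chain values was not tested.

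**Figure D2:**
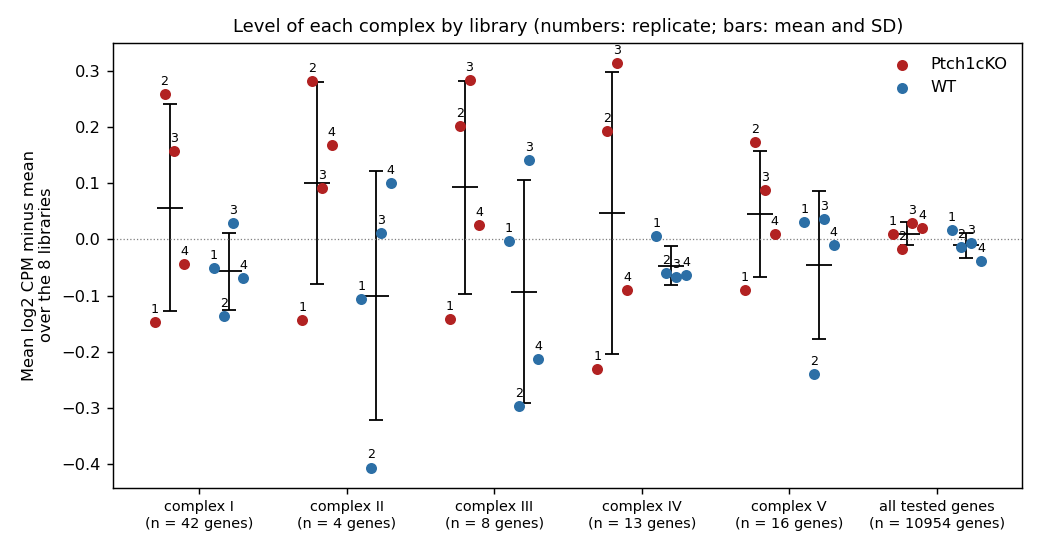
Points are libraries, labelled by replicate, with the mean log2 CPM over the tested members of each complex minus the mean over the 8 libraries; bars give the mean and SD of 4 libraries. In complex IV the 4 WT libraries lie within 6.42 to 6.49 before centring, and the 4 Ptch1cKO libraries span 6.26 to 6.80.

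Complex I, the NADH dehydrogenase, gave 44 of the 92 rows: 7 core subunits that carry out electron transfer, 29 accessory subunits and 8 assembly factors, and 42 were tested. Of these, 32 were positive, with a median log2 fold change of 0.10 and of -0.026 in TPM (-0.098 over all genes). The median was 0.19 without Ptch1cKO replicate 1, 0.053 without Ptch1cKO replicate 2 and 0.16 without WT replicate 3. The core subunits had a median of 0.22, with 6 of 7 above zero, and the accessory subunits one of 0.081, with 21 of 28. The mean log2 CPM of the complex was 4.54, 4.95, 4.85 and 4.65 in Ptch1cKO and 4.64, 4.55, 4.72 and 4.62 in WT.

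Ndufb10 (chr17:24722060-24724478, minus strand, mm10), an accessory subunit of the membrane arm, had the smallest p of the complex. It was measured at 17.6, 33.2, 24.6 and 22.6 CPM in Ptch1cKO replicates 1 to 4 and at 15.5, 15.9, 17.3 and 18.7 CPM in WT replicates 1 to 4. Only Ptch1cKO replicate 1 fell within the WT range, and the log2 fold change was 0.54 (SE 0.23, unadjusted p = 0.031; adjusted p = 0.479 by edgeR with Benjamini-Hochberg adjustment). The core subunit Ndufs1, the largest iron-sulphur protein of the complex, had 370, 573, 389 and 449 CPM in Ptch1cKO and 405, 301, 407 and 384 CPM in WT. Its log2 fold change was 0.25 (SE 0.15). Ndufs3, another core subunit, averaged 70.8 ± 18.9 CPM in Ptch1cKO and 56.2 ± 10.5 CPM in WT (SD, n = 4), and its log2 fold change was 0.33 (SE 0.21). For both core subunits the groups overlapped, and without Ptch1cKO replicate 2 the log2 fold changes were 0.11 for Ndufs1 and 0.19 for Ndufs3. Exons of Ndufs1 and Ndufs3 overlap genes on the opposite strand (Eef1b2 and Kbtbd4 among them), and the labels do not say whether strand was used in counting.

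The assembly factors, which help build complex I without staying in it, had low levels. Ndufaf4 (chr4:24898083-24905001, plus strand) was measured at 5.68, 6.60, 4.43 and 4.13 CPM in Ptch1cKO and at 3.87, 3.61, 2.66 and 3.91 CPM in WT. The 4 Ptch1cKO libraries lay above the 4 WT libraries, by a narrow margin between replicate 4 of each group. Its log2 fold change was 0.58 (SE 0.34, unadjusted p = 0.105; adjusted p = 0.638 by edgeR with Benjamini-Hochberg adjustment), from 18 to 40 reads in a Ptch1cKO library and 19 to 23 in a WT library. Groups did not overlap in 2 members (2.41%), both higher in Ptch1cKO, against 5.02% of all tested genes in either direction and 2.52% in that direction. Ndufaf2 had 4.40, 7.30, 4.92 and 3.64 CPM in Ptch1cKO and 2.52, 2.83, 2.52 and 4.53 CPM in WT, and its groups overlapped through WT replicate 4. Its log2 fold change of 0.72 (SE 0.37) was the largest among members and did not pass (adjusted p = 0.587 by edgeR with Benjamini-Hochberg adjustment). Ndufaf7, a methyltransferase, averaged 15.0 ± 2.67 CPM in Ptch1cKO and 13.4 ± 0.968 CPM in WT (SD, n = 4).

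Complex II, the succinate dehydrogenase, is encoded entirely in the nucleus, and all 4 members had positive fold changes, with a median of 0.19. In log2(TPM + 1) the median was 0.068, against -0.098 over all genes. Sdha and Sdhc were lower in Ptch1cKO on that scale, by differences of -0.046 and -0.016. Without Ptch1cKO replicate 2 the median was 0.091, and without WT replicate 2 it was 0.10. The flavoprotein Sdha had 399, 529, 405 and 486 CPM in Ptch1cKO and 420, 358, 460 and 492 CPM in WT, and its groups overlapped. The iron-sulphur subunit Sdhb had 48.1, 81.0, 74.0 and 63.5 CPM in Ptch1cKO and 61.2, 45.9, 54.1 and 57.0 CPM in WT. Its log2 fold change was 0.29 (SE 0.18), with Ptch1cKO replicates 2, 3 and 4 above every WT library and replicate 1 above 1 of them. The membrane anchor Sdhd averaged 18.6 ± 3.02 CPM in Ptch1cKO and 14.5 ± 3.36 CPM in WT (SD, n = 4), and its log2 fold change was 0.35 (SE 0.24).

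Complex III passes electrons from coenzyme Q to cytochrome c, and 7 of its 8 members had positive fold changes, with a median of 0.16 and of 0.064 in TPM. Leaving out Ptch1cKO replicate 1 gave 0.26, Ptch1cKO replicate 2 gave 0.10 and WT replicate 2 gave 0.094. Uqcrfs1 (chr13:30540308-30545362, minus strand), the Rieske iron-sulphur protein, was measured at 53.4, 64.5, 67.9 and 66.6 CPM in Ptch1cKO and at 38.9, 39.9, 50.9 and 47.4 CPM in WT. Every Ptch1cKO library lay above every WT library, and Ptch1cKO replicate 1, low for most members, was above WT replicate 3 by a small margin. The log2 fold change was 0.51 (SE 0.16, unadjusted p = 0.0067; adjusted p = 0.349 by edgeR with Benjamini-Hochberg adjustment, and 0.143 to 0.664 over 17 alternatives). Uqcrb, which binds coenzyme Q, averaged 35.5 ± 7.71 CPM in Ptch1cKO and 28.7 ± 6.71 CPM in WT (SD, n = 4), and its log2 fold change was 0.30 (SE 0.22). The hinge protein Uqcrh averaged 74.5 ± 22.4 CPM in Ptch1cKO and 62.1 ± 8.32 CPM in WT (SD, n = 4). Uqcr11 had a log2 fold change of 0.17 (SE 0.29), with its highest value in Ptch1cKO replicate 3 and its lowest in WT replicate 4. Uqcrq was the one member with a negative fold change, at -0.19.

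Complex IV, cytochrome c oxidase, reduces oxygen with the help of 3 kinds of nuclear subunit: those used in most tissues, those made mainly in heart and skeletal muscle, and those of testis or hypoxic cells. Here 13 of its 20 members were tested and 10 of the 13 had positive fold changes, with a median of 0.15 and of 0.017 in TPM. The median was 0.25 without Ptch1cKO replicate 1 and 0.056 without replicate 3. Cox6a1, the ubiquitous form of subunit 6a, had 392, 506, 657 and 461 CPM in Ptch1cKO and 449, 453, 408 and 335 CPM in WT. Cox6c had 72.9, 123, 92.2 and 68.3 CPM in Ptch1cKO and 65.9, 70.6, 67.8 and 74.3 CPM in WT. In both genes Ptch1cKO replicates 2 and 3, and in Cox6a1 also replicate 4, were above all WT libraries and replicate 1 was within the WT range, and the log2 fold changes were 0.29 (SE 0.16) and 0.35 (SE 0.18). That of Cox6a1 was 0.14 without Ptch1cKO replicate 3, and that of Cox6c was 0.16 without Ptch1cKO replicate 2. Cox7c had the lowest fold change of the complex, at -0.20 (SE 0.14), with 113, 128, 145 and 98.8 CPM in Ptch1cKO and 139, 138, 131 and 150 CPM in WT. An exon of Cox6c overlaps the opposite-strand gene Vps13b.

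The spread of this complex differed in width between the groups. Its mean log2 CPM was 6.26, 6.68, 6.80 and 6.40 in Ptch1cKO (SD 0.25, n = 4) and 6.49, 6.43, 6.42 and 6.42 in WT (SD 0.035, n = 4). Cox4i1, a ubiquitous subunit needed for assembly of the enzyme, showed the same layout. It had 263, 434, 473 and 363 CPM in Ptch1cKO, against 360, 353, 346 and 341 CPM in WT. Cox8a averaged 223 ± 55.5 CPM in Ptch1cKO and 199 ± 9.51 CPM in WT (SD, n = 4). Ndufa4, once counted in complex I, had 64.6, 124, 114 and 86.4 CPM in Ptch1cKO and 82.8, 74.0, 84.3 and 89.3 CPM in WT. Cox7b and Cox6b1 had log2 fold changes of 0.092 (SE 0.15) and -0.033 (SE 0.16), and Cox7a2l, which helps join complexes III and IV in supercomplexes, one of -0.17 (SE 0.18). The difference in spread was not tested.

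**Figure D3:**
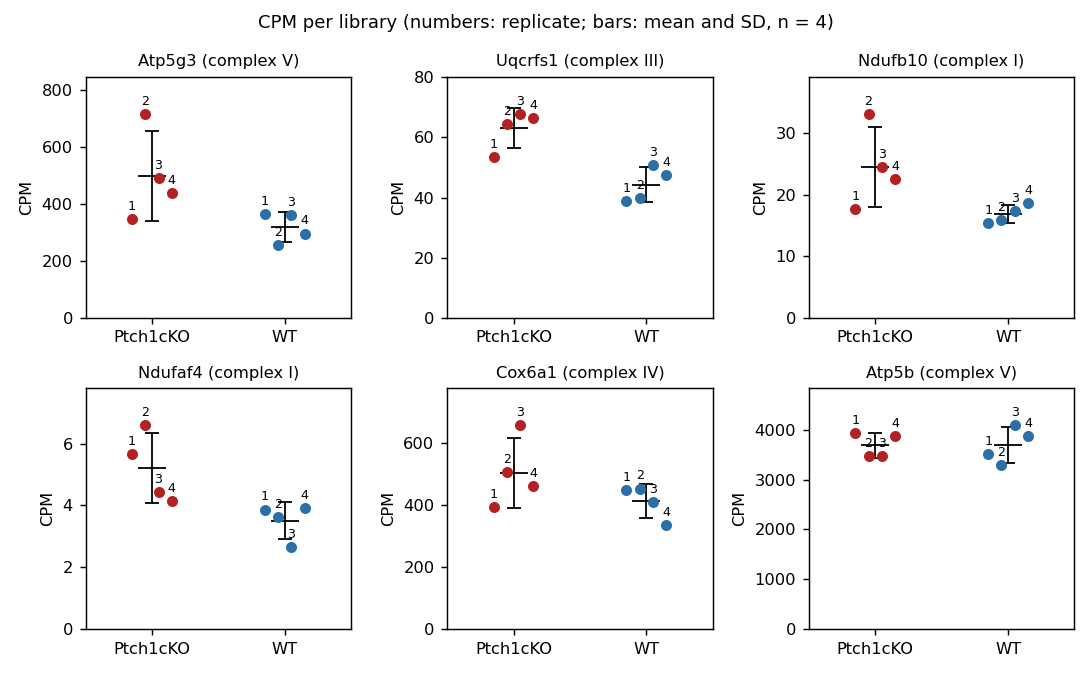
CPM of 6 members in each library, with Ptch1cKO on the left and WT on the right of each panel; numbers give the replicate and bars the mean and SD of 4 libraries. Uqcrfs1 and Ndufaf4 show no overlap between groups, Atp5g3 rests most on Ptch1cKO replicate 2 at 717 CPM, and Atp5b lies between 3300.9 and 4093 CPM in all 8 libraries.

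Complex V, the ATP synthase, had 16 tested members, of which 11 had positive fold changes, with a median of 0.12. In TPM the median was -0.019, against -0.098 over all genes. Leaving out Ptch1cKO replicates 1 to 4 in turn gave 0.19, 0.076, 0.044 and 0.19. Atp5g3 (chr2:73908447-73911326, minus strand), one of 3 genes that encode the same mature c subunit of the rotating ring, had the smallest p of all 83 members. It was measured at 346, 717, 490.2 and 438 CPM in Ptch1cKO and at 363, 256, 362 and 296 CPM in WT. Ptch1cKO replicates 2, 3 and 4 lay above every WT library, and replicate 1 below 2 of them. The log2 fold change was 0.64 (SE 0.19, unadjusted p = 0.0052; adjusted p = 0.328 by edgeR with Benjamini-Hochberg adjustment), and 0.42 (SE 0.16) without Ptch1cKO replicate 2. With no filter on low counts, where 0.967% of 20578 genes were called, edgeR called Atp5g3 as well (log2 fold change 0.65, Benjamini-Hochberg adjusted p = 0.0020), the one member called under any alternative. DESeq2 gave it an adjusted p of 0.149.

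The 3 c subunit genes had different fold changes, and the difference between them was not tested. Atp5g1 had 280, 294, 358 and 276 CPM in Ptch1cKO and 288, 270, 278 and 275 CPM in WT, a log2 fold change of 0.12 (SE 0.12). Atp5g2 was low, with 3.41, 1.22, 2.46 and 4.63 CPM in Ptch1cKO and 6.06, 2.04, 4.89 and 3.71 CPM in WT, a log2 fold change of -0.50 (SE 0.46). Of the reads assigned to the 3 genes, Atp5g3 took 55.0, 70.8, 57.6 and 61.0% in Ptch1cKO and 55.2, 48.5, 56.2 and 51.5% in WT. Ptch1cKO replicate 1 lay within the WT range of this share and the other Ptch1cKO libraries above it. The coding sequences of the 3 genes are alike, and the labels do not say how reads matching more than 1 of them were counted.

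In the catalytic head, the alpha subunit Atp5a1 had a log2 fold change of 0.18 (SE 0.13). The beta subunit Atp5b, which binds the nucleotide, had 3933, 3468, 3480.1 and 3876 CPM in Ptch1cKO and 3512, 3300.9, 4093 and 3877 CPM in WT, a log2 fold change of -0.0025 (SE 0.11). The gamma subunit Atp5c1, the central shaft, averaged 298 ± 40.4 CPM in Ptch1cKO and 254 ± 30.0 CPM in WT (SD, n = 4), and its log2 fold change was 0.23 (SE 0.14). The delta subunit Atp5d had 35.4, 25.2, 43.8 and 34.9 CPM in Ptch1cKO and 30.8, 24.99, 29.9 and 22.2 CPM in WT, a log2 fold change of 0.36 (SE 0.21). In Atp5d, Ptch1cKO replicate 2 was the lowest of its group, and exons of this gene overlap Cbarp on the opposite strand. Atp5s, an ATP synthase associated factor, averaged 5.19 ± 0.586 CPM in Ptch1cKO and 6.80 ± 1.30 CPM in WT (SD, n = 4).

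**Figure D4:**
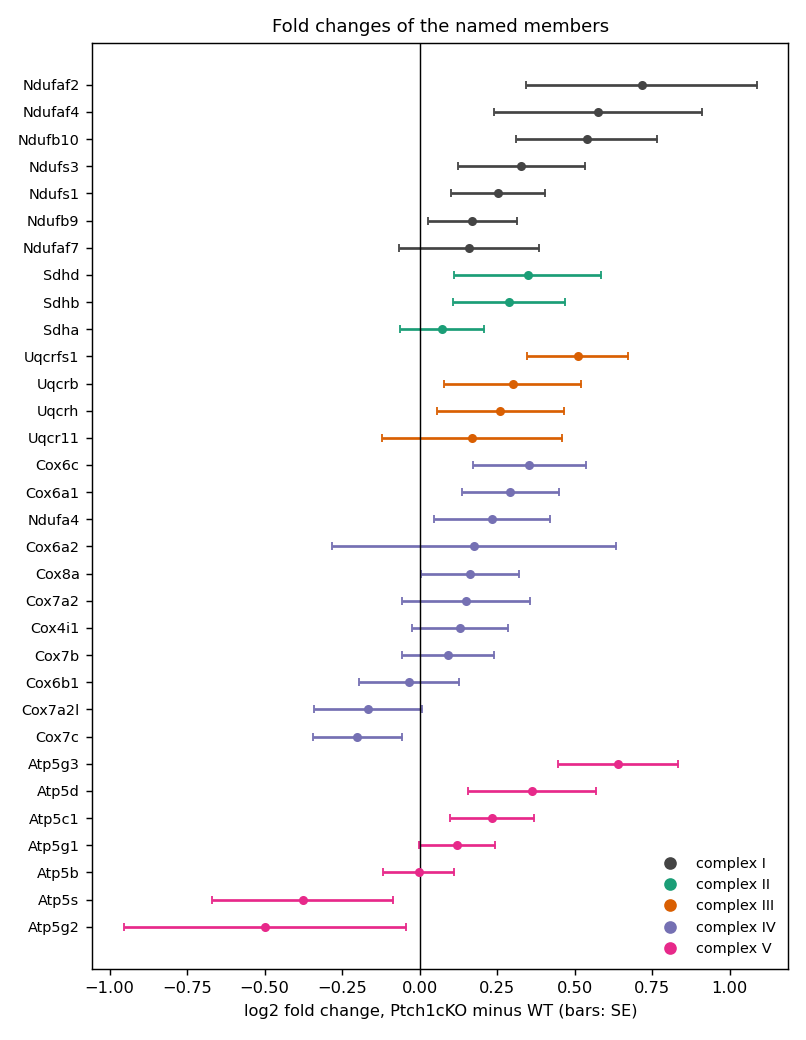
Log2 fold change, Ptch1cKO minus WT, with its SE for 32 tested members named by rule, coloured by complex. Most points lie right of zero in scaled counts, where 64 of 83 members (77.1%, against 49.6% of all genes) were positive. In TPM 41 members (49.4%, against 36.0% of all genes) were. Atp5g2 and Atp5s lie farthest left at -0.50 and -0.38, and no member passed the test over all genes.

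The promoters of Atp5g3, Uqcrfs1, Cox6a1 and Ndufaf4 are shown as examples. Atp5g3 had the smallest p, Uqcrfs1 and Ndufaf4 had groups that did not overlap, and Cox6a1 was most abundant in complex IV by TPM. Each promoter runs from 250 bases before to 50 bases after the gene's start in RefSeq, in the direction of transcription. The assembly is GRCm38.p6, also called mm10. They lie at chr2:73911277-73911576 (minus strand), chr13:30545267-30545566 (minus strand), chr5:115348909-115349208 (minus strand) and chr4:24897833-24898132 (plus strand). Capitals mark matches to the letters bound by nuclear respiratory factor Nrf1, GCGCA and GCGC with any 1 base between them, or to CCGGAAG, bound by ETS factors such as Gabpa, on either strand.
Atp5g3: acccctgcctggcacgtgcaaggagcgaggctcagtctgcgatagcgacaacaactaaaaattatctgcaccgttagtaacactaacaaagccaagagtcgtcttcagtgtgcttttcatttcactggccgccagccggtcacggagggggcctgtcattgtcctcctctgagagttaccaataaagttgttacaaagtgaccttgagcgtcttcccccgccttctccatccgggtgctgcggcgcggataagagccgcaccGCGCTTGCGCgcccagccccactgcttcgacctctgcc
Uqcrfs1: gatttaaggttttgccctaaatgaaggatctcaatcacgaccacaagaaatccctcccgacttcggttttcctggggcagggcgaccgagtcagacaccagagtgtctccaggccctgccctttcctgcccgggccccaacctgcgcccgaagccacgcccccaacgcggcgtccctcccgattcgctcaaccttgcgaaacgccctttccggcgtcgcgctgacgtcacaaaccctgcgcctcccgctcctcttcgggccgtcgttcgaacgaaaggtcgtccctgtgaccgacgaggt
Cox6a1: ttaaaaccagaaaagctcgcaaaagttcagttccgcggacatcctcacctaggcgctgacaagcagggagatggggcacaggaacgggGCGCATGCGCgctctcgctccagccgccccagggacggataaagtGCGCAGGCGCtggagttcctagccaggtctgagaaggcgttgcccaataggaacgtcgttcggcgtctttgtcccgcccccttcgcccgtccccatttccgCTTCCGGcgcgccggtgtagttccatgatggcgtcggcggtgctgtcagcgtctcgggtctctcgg
Ndufaf4: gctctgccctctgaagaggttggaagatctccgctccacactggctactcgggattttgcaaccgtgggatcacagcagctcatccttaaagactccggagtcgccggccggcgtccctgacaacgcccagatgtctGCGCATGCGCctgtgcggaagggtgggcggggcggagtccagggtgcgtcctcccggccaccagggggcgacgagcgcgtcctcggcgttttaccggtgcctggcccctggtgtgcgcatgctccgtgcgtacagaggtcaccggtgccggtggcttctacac
Of the 92 members, 73 matched an entry in the RefSeq promoter table, with 78 promoters. The Nrf1 letters were found in 20 of those 78 promoters (25.6%), in 19 genes, and in 4.60% of all 32851 promoters of that length. The ETS letters were found in 17 of the 78 (21.8%), against 8.86% of all promoters, and AAGATGGCG, bound by Yy1, in 7 (8.97%), against 1.40%. GACCACCCA, bound by the Hedgehog effectors of the Gli family, was found in 0 of the 78, against 0.253% of all promoters. Both strands were searched, and a match is a description of letters and not of binding. Cox6a1 held 2 Nrf1 matches and 1 ETS match, Atp5g3 and Ndufaf4 held 1 Nrf1 match each, and Uqcrfs1 held none of these letters. The promoter of Ndufb10, the member of complex I with the smallest p, was searched as well. It also held none, and its sequence is not printed. Whether these letters have a part in the variation of members across libraries was not tested.

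Levels of different members are compared in TPM, which scale for length, and still depend on how well the exome capture probes pulled down each transcript. Mean TPM over the 8 libraries ranged over 3.18 to 3478 in complex I, 35.5 to 416 in complex II, 68.3 to 375 in complex III, 7.52 to 2574 in complex IV and 11.2 to 5344 in complex V. Atp5b was highest of all, at 5125 ± 495 TPM in Ptch1cKO and 5564 ± 592 TPM in WT (SD, n = 4). Ndufb9, an accessory subunit of complex I, followed at 3532 ± 618 TPM in Ptch1cKO and 3423 ± 329 TPM in WT (SD, n = 4), and its exons overlap a second annotated gene on the same strand, Gm49356. Cox6a1 had 2726 ± 492 TPM in Ptch1cKO and 2422 ± 279 TPM in WT (mean ± SD, n = 4). The next member of complex V, Atp5g3, had 2059 ± 680 TPM in Ptch1cKO and 1427 ± 214 TPM in WT (SD, n = 4), and the spreads of Cox6a1 and Atp5g3 overlap in Ptch1cKO. Assembly factors of complex I had a median of 17.4 TPM, core subunits one of 190.2 TPM and accessory subunits one of 92.1 TPM. In complex II, whose subunits occur in equal numbers in the enzyme, Sdha had 410.1 ± 68.7 TPM and Sdhd 38.3 ± 5.66 TPM in Ptch1cKO, and Sdha had 423 ± 62.6 TPM and Sdhd 32.6 ± 7.73 TPM in WT (SD, n = 4).

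**Figure D5:**
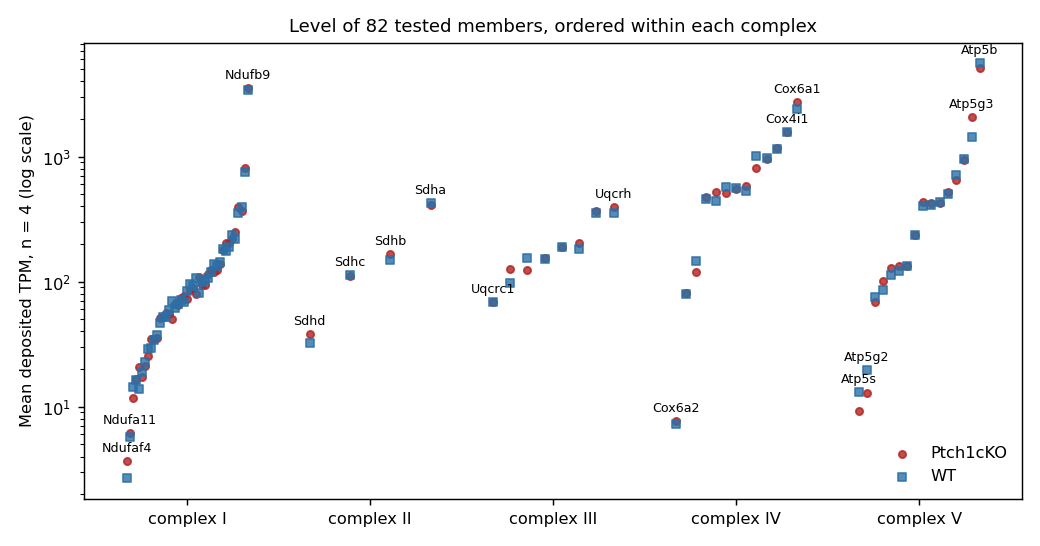
Mean deposited TPM of 82 of the 83 tested members on a log axis, ordered within each complex, with circles for Ptch1cKO and squares for WT (n = 4 each). Members of 1 complex span up to 3 powers of 10 in level, and the symbols of both groups lie close together for most members.

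Isoform use was of the ubiquitous kind in both groups. Cox4i1 took 16979 of 16994 reads of its pair, and Cox4i2, the form used in lung and in hypoxia, had 0, 2, 3 and 2 reads in Ptch1cKO and 1, 3, 4 and 0 in WT. Cox6a2, the heart and muscle form, was the one minor isoform of complex IV with enough reads to be tested. It had 14, 11, 9 and 7 reads in Ptch1cKO and 14, 10, 10 and 5 in WT, which was 0.25 to 0.51% of the Cox6a reads in Ptch1cKO and 0.31 to 0.52% in WT. Exons of Cox6a2 overlap Itgad on the opposite strand. All 4 muscle markers had counts, and their sum was 45.8 to 75.9 CPM in Ptch1cKO and 64.6 to 127 CPM in WT. Of these markers, Myh7 had 31.2 to 95.7 CPM over the 8 libraries, and Ckm had 2 to 5 reads in a library. Cox7a1, another muscle form, had 11 reads in all, and the testis forms Cox6b2, Cox7b2 and Cox8c had 24, 19 and 2. The hypoxia-linked Ndufa4l2 had 2 reads, against 4156 of Ndufa4.

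The 9 untested members were Cox8b and the other minor isoforms of complex IV besides Cox6a2, 7 in all, together with Ndufs5 and Atp5sl. Ndufs5, an accessory subunit of complex I that respiring cells use, was listed at 0 in every library, as was Cox8b, and whether reads of either gene could be counted was not tested. Atp5sl, which takes part in building complex I, had 19, 9, 5 and 13 reads in Ptch1cKO and 9, 4, 7 and 2 in WT. On the X chromosome lie Cox7b, Ndufa1 and Ndufb11. Ndufa1, in complex I, had 11.8, 16.9, 16.2 and 8.93 CPM in Ptch1cKO and 15.1, 15.2, 12.6 and 22.9 CPM in WT, and its log2 fold change was -0.29 (SE 0.27), or -0.50 (SE 0.32) in the 6 libraries with under 10 Xist reads. Ndufb11, of the same complex, had 59.1, 107, 75.5 and 69.6 CPM in Ptch1cKO and 71.3, 67.3, 65.7 and 46.9 CPM in WT. In the 6 libraries with under 10 Xist reads, 62 of 84 tested members (73.8%) had positive fold changes, against 50.4% of all genes, with a median of 0.13. By edgeR, 0 of them passed and 2 (2.38%) had an unadjusted p under 0.05, against 7.91% of all genes.

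Genes that work beside the respiratory chain and lie outside the symbol rule were described with the same fit, and 0 of them passed. Of 16 genes of the TCA cycle and pyruvate dehydrogenase, 14 had positive fold changes, with a median of 0.14 (0.031 in TPM, 0.086 without Ptch1cKO replicate 2 and 0.074 without WT replicate 2), and fumarase (Fh1) had the smallest p, with a log2 fold change of 0.43 (SE 0.19). Of 14 tested electron carriers and coenzyme Q synthesis genes, 10 were positive, with a median of 0.15 (0.041 in TPM and 0.084 without WT replicate 2). Cytochrome c1 (Cyc1), a catalytic subunit of complex III, had 55.8, 108, 96.7 and 74.5 CPM in Ptch1cKO and 60.6, 49.3, 71.4 and 64.4 CPM in WT, with the same high and low Ptch1cKO libraries as most members. Its log2 fold change was 0.44 (SE 0.20, unadjusted p = 0.042; adjusted p = 0.515 by edgeR with Benjamini-Hochberg adjustment).

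A list of 8 tested genes held carriers and channels for ATP, ADP and phosphate, the uncoupling protein Ucp2 and the ATP synthase inhibitor Atpif1. Of these, called carriers here, 7 were positive, with a median of 0.053. The median was -0.058 in TPM, against -0.098 over all genes, and 0.14 without WT replicate 4. The adenine nucleotide translocator Slc25a5 had 428, 522, 435 and 497 CPM in Ptch1cKO and 333, 282, 390.3 and 383 CPM in WT. Its groups did not overlap, and the log2 fold change was 0.44 (SE 0.13; adjusted p = 0.325 by edgeR with Benjamini-Hochberg adjustment). Cox15, which makes the heme of complex IV, had 19.9, 16.5, 16.7 and 15.5 CPM in Ptch1cKO and 8.92, 14.8, 11.7 and 9.47 CPM in WT, also without overlap. Its adjusted p was 0.445 by edgeR with Benjamini-Hochberg adjustment. Foxred1, Mrpl20 and Mrps18b of the accompanying lists were higher without overlap as well, as were 2.52% of all tested genes. The share over all genes of these lists was not counted. Of the 17 tested complex IV assembly genes, 9 were positive, with a median of 0.056. In TPM their median was -0.053, against -0.098 over all genes. When single libraries were left out, it was between 0.032 (without Ptch1cKO replicate 3) and 0.23 (without Ptch1cKO replicate 2) in scaled counts. Assembly genes of complexes II, III and V were split evenly, with 4 of 8 positive.

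Regulators of mitochondrial biogenesis had the opposite balance by count, with 3 of 13 tested genes positive and a median of -0.16, which was -0.012 without WT replicate 4. In log2(TPM + 1) their median was -0.16, against -0.098 over all genes. Averaged over the 13 genes, log2 CPM was 3.54 in both Ptch1cKO and WT, so their mean level did not differ. The coactivator Ppargc1a had 312, 320.4, 237 and 330.1 CPM in Ptch1cKO and 286, 321, 397 and 374 CPM in WT, a log2 fold change of -0.20 (SE 0.14). Of 70 tested mitochondrial ribosomal protein genes 42 were positive, with a median of 0.056, and of 22 tested import genes 12 were positive, with a median of 0.033. Both medians were negative in log2(TPM + 1), at -0.0093 and -0.056, where the median over all genes was -0.098. Leaving out single libraries gave 0.0014 (without Ptch1cKO replicate 2) to 0.11 (without WT replicate 4) for the ribosomal proteins, and -0.019 (without Ptch1cKO replicate 4) to 0.079 (without Ptch1cKO replicate 2) for import. An unadjusted p under 0.05 by edgeR was found for 6 of the 70 ribosomal protein genes, 4 higher and 2 lower in Ptch1cKO. It was found for 0 of the 22 import genes and for 9.34% of all tested genes.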

How the data were processed

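RNA of 8 libraries was amplified at low input and enriched by exome capture, per the labels' protocols. The submitters' processing notes name bcl2fastq 2.18, STAR 2.5 and the build mm10, and no source used here names the counting program, annotation or strand setting. Counts deposited by the authors are unnormalized whole reads per gene symbol, and the deposited TPM follow the same counts (count-to-TPM ratios of the 83 tested members differed between libraries by at most 1.01-fold after 1 factor per library).

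In edgeR 4.0.16 (R 4.3.3), filterByExpr (minimum count 10) kept 10954 of 20578 genes with a read, libraries were scaled by TMM, and glmQLFit (robust) and glmQLFTest compared the 4 Ptch1cKO and 4 WT libraries, with Benjamini-Hochberg adjustment over all tested genes. The SE is the fold change divided by the square root of F. Mean log2 CPM used a prior count of 2. DESeq2 1.42.0 and limma 3.58.1 served alternatives. Positions and exon overlaps come from GENCODE M21 on the same assembly. Libraries of a group differed by more than sampling noise in a chi-square comparison.

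Members and lists were chosen with earlier results of these data known. By function, Ndufa4 and Ndufa4l2 were placed in complex IV and Atp5sl in complex I. The rule for naming took, per complex, the 3 smallest p-values among subunits and among assembly factors, the 2 highest TPM, all isoform pairs, and members that were called or whose groups did not overlap, and up to 3 genes per accompanying list; Uqcrq, Sdhc, Atp5a1, Ndufa1, Ndufb11, Ndufs5 and Atp5sl fall outside it and were named after their values were seen. For 1 tested member, counted in the summaries, no value of its own is reported here.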

Additional observations from a re-analysis of the deposited data

Results flagged for a closer look

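Among 76 groups of 4 libraries checked for a single distant value, 2 were flagged, and chance flags about 1 in 20. Ndufaf2 stood at 4.53 CPM in WT replicate 4, while the other WT libraries had 2.52 to 2.83 CPM. The mean log2 CPM of complex IV was 6.49 in WT replicate 1, while the other WT libraries had 6.42 to 6.43. That second gap is large only beside the narrow range of the other WT libraries.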

How the results depend on the processing

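Over 17 alternatives, the number of members called stayed at 0 except without the count filter, where it was 1. Members with a positive fold change numbered 64, 41 in TPM with either pseudocount (1 or 0.1), and 54 to 69 when single libraries were left out. Of all genes, 49.6% were positive, 36.0 and 36.3% in TPM (pseudocount 1 and 0.1), and 48.4 to 50.9% when single libraries were left out. Members with an unadjusted p under 0.05 numbered 3, 5 without the count filter, and 2 to 10 when single libraries were left out, the 10 without Ptch1cKO replicate 1. Over all genes the share was 9.34%, 9.79% without the count filter, and 6.83 to 9.54% when single libraries were left out. The median of members was 0.071 without Ptch1cKO replicate 2 and 0.20 without replicate 1. In TPM with a pseudocount of 1 the complex V median was -0.019, the median of complex II, III and V assembly genes -0.16 and that of the carriers -0.058. With a pseudocount of 0.1 these 3 medians were -0.019, -0.17 and -0.058. The median over all genes was -0.098 with a pseudocount of 1 and -0.106 with 0.1. Leaving out single libraries gave -0.20 to 0.11 for those assembly genes, 0.026 to 0.14 for the carriers and -0.16 to -0.012 for the biogenesis regulators. The complex I assembly genes outside the symbol rule had a median of 0.55 with a mean of at least 50 counts and -0.030 without the filter, where the genes tested differ, and the biogenesis regulators one of -0.053 with at least 50 counts. Among the 32 tested members named by rule, signs turned for several, and the cause was not tested. In TPM (pseudocount 1 and 0.1) this held for Atp5g1 (-0.0044 and -0.0045), Cox4i1 (-0.020 and -0.020), Cox7b (-0.045 and -0.045) and Sdha (-0.046 and -0.046). Members outside the naming rule turned in TPM as well, where the number of positive members fell from 64 to 41. In the 6 libraries with under 10 Xist reads it held for Sdha (-0.0037). For Atp5b the fold change was 0.0023 with at least 50 counts, 0.0068 without the filter, 0.0060 with upper quartile factors and 0.00014 with the replicate block. When single libraries were left out, fold changes spanned -0.053 to 0.050 for Atp5b, -0.11 to 0.083 for Cox6b1, -0.022 to 0.20 for Cox7b, -0.011 to 0.28 for Cox8a, -0.0084 to 0.14 for Sdha and -0.074 to 0.36 for Uqcr11.

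Replicate numbers in the titles, used throughout, did not pair the libraries: deviations of same-numbered libraries from their group means correlated at 0.018, -0.17, -0.10 and -0.025. Ptch1cKO replicates 3 and 4 are described by the submitters as Ptch1KO4 and Ptch1KO5, and pairing by those numbers was not tested. The deposited column names also carry prefixes, none of them shared by both groups. What the prefixes stand for is not stated, and their part in the values was not tested. Between the groups, a part of the prefixes cannot be told apart from genotype. With the title replicate number as a block, 0 members were called and the median of members was 0.11. A positive fold change was found for 69 members, against 51.2% of all genes. An unadjusted p under 0.05 was found for 2 members, against 7.14% of all genes. Genes with few reads limit what could be seen: Ndufaf4 and Ndufaf2 rest on at most 42 reads in a library.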
